A study of Mus musculus with 12 samples.

Results

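Interferon-stimulated genes are switched on when a cell senses interferon, and 9 of them were followed here through the hippocampus of conditional double knockout mice and wild-type mice: Ifitm2, Ifitm3, Bst2, Ifit1, Ifit3, Isg15, Stat2, Irf7 and Irf9. They were taken by gene symbol, as interferon response genes outside antigen presentation, and are 9 of the 21878 genes of each table. All 9 passed the filter on low values (at least 0.5 FPKM in at least 3 libraries), which 12689 genes passed. FPKM is the number of fragments scaled to the length of the transcript and to the mapped fragments of the library, so that levels can be set side by side between genes.

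The groups were conditional double knockout (DKO) mice killed at 9 p.m. (Night DKO), wild-type (WT) mice killed at 9 p.m. (Night WT), DKO mice killed at 9 a.m. (Day DKO) and WT mice killed at 9 a.m. (Day WT), with 3 libraries each and 12 in all. Psen2, one of the deleted genes, encodes a catalytic subunit of gamma-secretase, a protease within the membrane. The promoter that drives the recombinase, the age, sex and strain of the mice, the floxed alleles that WT mice may carry, and whether a library is 1 mouse or a pool are not stated in the labels or the series description. P-values therefore measure the spread between these libraries, which may be partly technical. The labels name the tissue brain and the series description names the hippocampus. All 10 hippocampal neuron markers passed the filter, with summed levels of 748 to 850 FPKM in the 12 libraries.

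As the check of the labels, Psen2 had 0.351 to 0.594 FPKM in Night DKO libraries, against 2.94 to 3.64 FPKM in Night WT libraries, and 0.275 to 0.520 FPKM in Day DKO libraries, against 1.47 to 2.87 FPKM in Day WT libraries. A deletion of part of a gene in part of the cells leaves transcript in such a measurement. The genotypes did not overlap at either time. Libraries of 1 group correlated at r = 0.990 to 0.995 over the genes that passed the filter, and libraries of different groups at 0.982 to 0.993. Night WT replicate 1 stood apart from its group in that 4 Y-linked genes summed to 0.0308 FPKM there, against 14.1 to 18.1 FPKM in the other 11 libraries. Day DKO replicate 2 stood apart in choroid plexus transcripts, whose 16 markers summed to 79.5 FPKM there, against 887 to 3316 FPKM in the other 11 libraries.

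Interferons signal through cell-surface receptors and the Janus kinases to STAT2, which joins IRF9 in a complex that binds interferon-stimulated response elements (ISREs) in promoters. The genes so induced block virus entry, bind viral RNA or hold virus particles at the membrane, and IRF7 feeds back on the production of interferon itself. In the brain, endothelial cells, the meninges and the choroid plexus express several of them without infection.

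In these libraries the genes fell into 3 patterns. Ifitm3 was lower in DKO than in WT mice by day and on average over both times. Ifitm2 and Ifit3 were higher at night than by day on average over both genotypes. Stat2, Irf7, Isg15, Ifit1, Irf9 and Bst2 passed the threshold (adjusted p under 0.05, limma, adjusted over the 12689 genes) in none of the 7 comparisons made, which were DKO against WT at night, by day and averaged, night against day in DKO mice, in WT mice and averaged, and the interaction of genotype and time.

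The promoters were searched for the sequence that the complex of STAT2 and IRF9 binds, and are shown because the response to interferon runs through it. RefSeq windows from 250 bases before to 50 bases after the start of transcription (300 bases, GRCm38.p6) were found for all 9 genes and were searched on both strands for the ISRE core GAAANNGAAA, which reads TTTCNNTTTC on the other strand. The core lay in the window of 7 of the 9 genes, against 3.44% of all 32851 windows of that length and 3.4% of the tested genes with a window. The 5 genes with a core close upstream of the start follow as the strand of the gene, 5′ to 3′ and ending at the base before the start, with each core in capitals. They are Isg15 (chr4:156200819-156200968, minus strand), Ifit1 (chr19:34640739-34640888, plus strand), Ifit3 (chr19:34583359-34583528, plus strand), Ifitm2 (chr7:140955962-140956111, minus strand) and Bst2 (chr8:71537473-71537622, minus strand).
Isg15: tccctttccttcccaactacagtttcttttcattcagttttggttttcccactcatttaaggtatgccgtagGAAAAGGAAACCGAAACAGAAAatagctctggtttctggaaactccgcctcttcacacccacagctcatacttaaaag
Ifit1: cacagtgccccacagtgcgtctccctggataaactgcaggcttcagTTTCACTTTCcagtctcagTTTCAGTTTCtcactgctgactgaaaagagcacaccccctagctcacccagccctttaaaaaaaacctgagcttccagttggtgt
Ifit3: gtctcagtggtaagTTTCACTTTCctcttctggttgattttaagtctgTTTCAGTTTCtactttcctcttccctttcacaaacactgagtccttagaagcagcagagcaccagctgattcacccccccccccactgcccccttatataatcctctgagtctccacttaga
Ifitm2: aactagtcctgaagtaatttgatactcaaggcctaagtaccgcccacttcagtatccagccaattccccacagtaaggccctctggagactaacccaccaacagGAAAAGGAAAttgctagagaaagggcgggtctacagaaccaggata
Bst2: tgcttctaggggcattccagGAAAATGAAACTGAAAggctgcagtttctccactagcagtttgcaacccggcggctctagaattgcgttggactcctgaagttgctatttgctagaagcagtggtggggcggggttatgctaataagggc
Counted from the start, 3 overlapping cores of Isg15 ran from base -78 to base -57. Ifit1 had cores that began at -104 and -85, and Ifit3 had cores that began at -156 and -122. In both genes the pair read TTTCACTTTC and TTTCAGTTTC. The Ifitm2 core began at -46, the 2 overlapping Bst2 cores at -130 and -124, and the Stat2 core at -222. For Ifitm2 and Ifit3 the start used lies inside the annotated span of the gene, so positions refer to that start. Irf9 had 2 windows. In Ifitm3 the cores lay after the start, within the first 30 transcribed bases (chr7:141010715-141010744, minus strand).
Ifitm3: agGAAAAGGAAActtctgaGAAACCGAAAc
The windows of Irf7 and Irf9 held no core, which says only that these letters are not there. A second motif, the gamma-activated sequence TTCNNNGAA of the response to interferon gamma, was found in Ifitm3 and in Bst2, against 8.3% of all windows. It overlapped a core in both genes. A match is a description of the letters and not of binding.

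**Figure D1:**
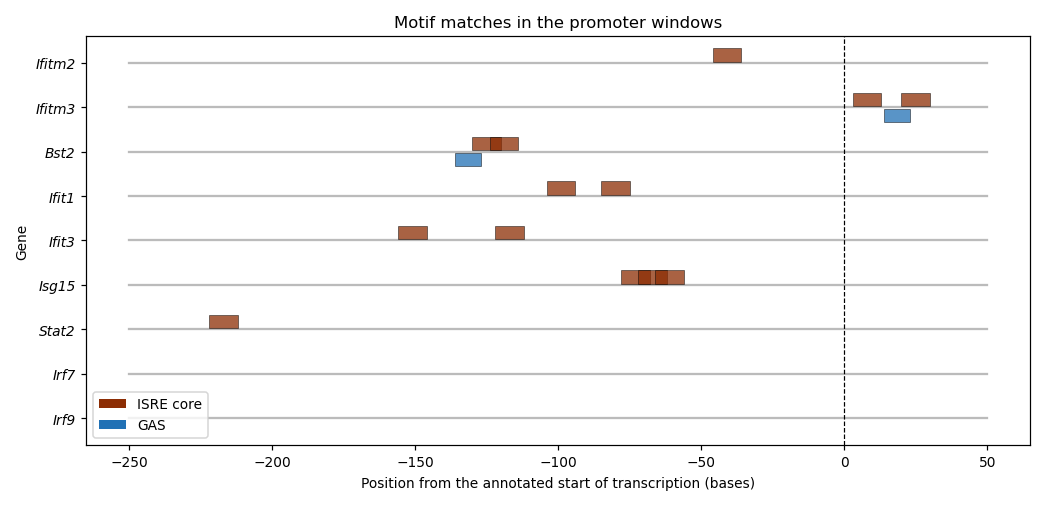
Matches to the ISRE core (brown) and the gamma-activated sequence (GAS, blue) in the promoter windows of the 9 genes. The x axis gives the position in bases from the annotated start of transcription (dashed line), and each grey line is 1 gene. The cores of Ifitm3 lie after the start, those of the other 6 genes with a core before it, and Irf7 and Irf9 have none.

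By level, the 9 genes ran from well above the middle to near the bottom of the tested genes. Ifitm2 averaged 9.68 ± 3.69 FPKM, Ifitm3 8.67 ± 2.29 FPKM and Bst2 4.53 ± 1.16 FPKM over the 12 libraries (SD). Stat2 followed with 1.79 ± 0.0832 FPKM, Irf9 with 1.55 ± 0.261 FPKM and Ifit3 with 1.36 ± 0.382 FPKM. Isg15 had 0.687 ± 0.426 FPKM, Ifit1 0.528 ± 0.178 FPKM and Irf7 0.474 ± 0.113 FPKM. A lower mean than that of Ifitm2 was found for 72.7% of the tested genes, and a lower mean than that of Irf7 for 1.80%. Neighbours in this order overlapped within their SDs, apart from Ifitm3 over Bst2 and Bst2 over Stat2. The first 6 genes reached 0.5 FPKM in all 12 libraries, Ifit1 did in 8, Isg15 in 6 and Irf7 in 5. Stat2 was the steadiest of the 9, its highest library being 1.15-fold its lowest, and Isg15 varied most, by 5.87-fold.

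**Figure D2:**
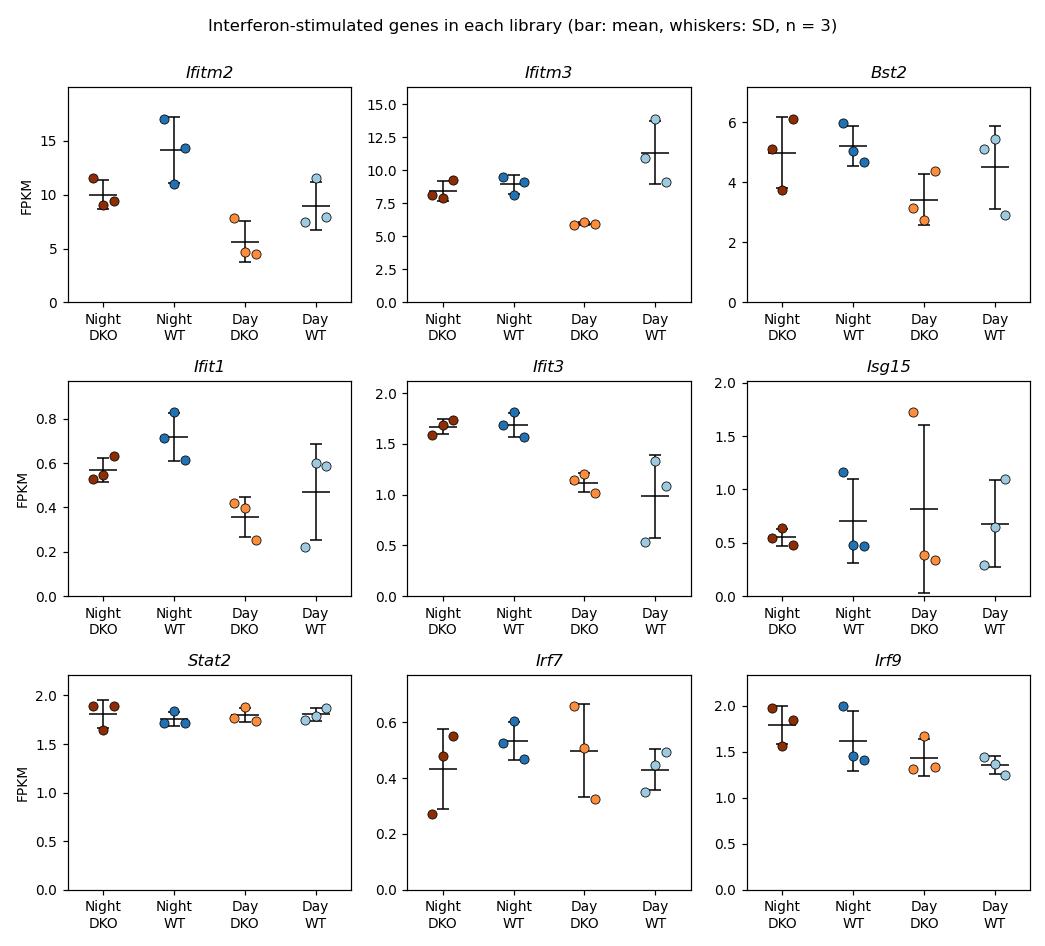
FPKM of the 9 genes in each library (points, replicates 1 to 3 from left to right), with the group mean (bar) and SD (whiskers, n = 3). Each y axis starts at 0. Ifitm3 is lowest in the 3 Day DKO libraries, Ifit3 is higher in every night library than in any day library, and Stat2 is nearly level throughout.

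Ifitm3 encodes a membrane protein that stops enveloped viruses from fusing inside endosomes, and it is known to bind gamma-secretase. It lies on chromosome 7 (141009590 to 141010744) beside the other members of its family. Night DKO libraries had 8.12, 7.87 and 9.27 FPKM, against 9.51, 8.15 and 9.15 FPKM in Night WT libraries. Day DKO libraries had 5.83, 6.10 and 5.97 FPKM, against 11.0, 13.9 and 9.14 FPKM in Day WT libraries. By day every DKO library lay below every WT library, while at night the genotypes overlapped. Genes whose day groups did not overlap in this direction made up 5.26% of the tested genes.

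By day Ifitm3 averaged 5.97 ± 0.132 FPKM in DKO mice and 11.3 ± 2.41 FPKM in WT mice (SD, n = 3 each). The difference was -0.81 on the log2(FPKM + 1) scale (95% interval -1.05 to -0.57, limma adjusted p = 0.0123). Ifitm3 was the 1 gene of the 9 that passed by day, a comparison in which 1.18% of the tested genes passed. At night the difference was -0.08 (-0.32 to 0.17, limma adjusted p = 0.890). Averaged over times it was -0.44 (-0.61 to -0.27, limma adjusted p = 0.0192), and Ifitm3 was again the 1 of the 9 that passed, against 1.88% of the tested genes. The averaged difference had a limma adjusted p of 0.0551 without Night DKO replicate 2, of 0.0547 without Night WT replicate 1, of 0.0558 with no filter on low values and of 0.0623 with the choroid plexus score as a covariate. The difference between the night and the day effect was 0.73 (0.39 to 1.07), with an unadjusted p of 0.000506 and a limma adjusted p of 0.396. Over time, Ifitm3 differed by 0.43 between night and day in DKO mice (limma adjusted p = 0.121, and 0.0469 without Day WT replicate 2) and by -0.30 in WT mice (limma adjusted p = 0.148), and by -0.15 in WT mice without Day WT replicate 2.

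Markers of the coverings and vessels of the brain were also lower by day in DKO libraries. The sum of 16 choroid plexus markers, led by genes of that tissue, was 887, 79.5 and 1890 FPKM in Day DKO libraries, against 2700, 2934 and 1188 FPKM in Day WT libraries. All 16 were lower by day in DKO mice (median log2 difference -1.01) and none passed. With the choroid plexus score (mean log2 level of the 16 markers) as a covariate the day difference of Ifitm3 was -0.69 (limma adjusted p = 0.0797). In that fit 4 of the 12689 tested genes passed by day, against 150 as reported. Without Day DKO replicate 2 the day difference of Ifitm3 was -0.82 (limma adjusted p = 0.0413). Leptomeningeal markers summed to 36.5 to 46.1 FPKM in Day DKO libraries, against 55.9 to 76.2 FPKM in Day WT libraries, with 2 of 10 lower past the threshold. Mural cell markers summed to 26.4 to 28.7 FPKM in Day DKO libraries, against 32.4 to 48.4 FPKM in Day WT libraries, with 4 of 10 lower past the threshold. Endothelial markers were lower by day for 9 of 10 genes and none passed. At night, when the genotypes overlapped in Ifitm3, choroid plexus markers summed to 2017 to 3180 FPKM in DKO libraries, against 1438 to 3316 FPKM in WT libraries. Of the 16, 11 were lower in DKO mice at night and 5 higher (median log2 difference -0.03), and none passed. For the interaction of genotype and time all 16 were positive (median 1.05) and none passed. Leptomeningeal markers at night summed to 49.4 to 56.7 FPKM in DKO libraries, against 65.6 to 79.9 FPKM in WT libraries. All 10 were lower and none passed. Mural cell markers summed to 30.4 to 31.5 FPKM in Night DKO libraries, against 37.2 to 46.2 FPKM in Night WT libraries, with 8 of 10 lower and none past the threshold. The part of leptomeningeal, mural and endothelial cells in the result was not tested. In whole tissue, fewer cells of a type and less RNA per cell cannot be told apart.

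Ifitm2, a neighbour of Ifitm3 on chromosome 7 (140954837 to 140959686) with the same kind of antiviral membrane protein, had 11.6, 9.05 and 9.37 FPKM in Night DKO libraries, against 17.0, 11.0 and 14.4 FPKM in Night WT libraries. It had 7.83, 4.64 and 4.47 FPKM in Day DKO libraries, against 7.45, 11.5 and 7.91 FPKM in Day WT libraries. In DKO mice every night library lay above every day library, as did 12.9% of the tested genes, whereas in WT mice and between genotypes the groups overlapped. The highest of the 12 values belonged to Night WT replicate 1.

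Averaged over genotypes, Ifitm2 was higher at night, with 12.1 ± 3.10 FPKM at night and 7.31 ± 2.60 FPKM by day (SD, n = 6 each). That difference was 0.68 (0.38 to 0.99, limma adjusted p = 0.0204), with the same sign in both genotypes. Ifitm2 and Ifit3 were the 2 of the 9 that passed for time averaged over genotypes, against 6.07% of the tested genes. Within a genotype the night to day difference of Ifitm2 was 0.75 in DKO mice (limma adjusted p = 0.124) and 0.61 in WT mice (limma adjusted p = 0.113). Without Day WT replicate 1 the averaged time difference was 0.63 (limma adjusted p = 0.0541), and with the choroid plexus score as a covariate it was 0.56 (limma adjusted p = 0.0638).

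Between genotypes Ifitm2 did not pass. Its difference was -0.45 at night (-0.88 to -0.02, limma adjusted p = 0.526), -0.60 by day (-1.03 to -0.17, limma adjusted p = 0.161) and -0.52 averaged over times (-0.83 to -0.22, limma adjusted p = 0.0780). Without Day DKO replicate 1, the highest of its group, the day difference was -0.82 (limma adjusted p = 0.0470) and the averaged one had a limma adjusted p of 0.0286. Its level followed the leptomeningeal markers across the 12 libraries (r = 0.85, and 0.83 with group means removed), a description of libraries that share 4 groups. Those markers were lower in DKO mice for 10 of 10 genes averaged over times, 6 of them past the threshold. In the same average, 3 of 5 red blood cell markers were lower past the threshold, and all 5 were higher at night past it. The part of these cells in the Ifitm2 levels was not tested.

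Both genes belong to a family of similar sequences, and how the authors' counting split reads between the copies is not stated in the sources used here. A further family member, Ifitm1, had 2.16, 1.85 and 2.13 FPKM in Night DKO libraries, against 3.60, 3.78 and 3.37 FPKM in Night WT libraries. It had 1.13, 0.801 and 1.06 FPKM in Day DKO libraries, against 1.29, 2.69 and 2.36 FPKM in Day WT libraries. DKO libraries lay below WT libraries at each time and night libraries above day libraries in each genotype. Of all tested genes, 5.26% lay wholly lower in DKO libraries by day, and the share at night is not reported here. Night libraries lay wholly above day libraries for 12.9% of them in DKO mice and 24.3% in WT mice. Ifitm1 passed in both averaged comparisons, with -0.60 for genotype (limma adjusted p = 0.0146, and 0.0502 with no filter on low values) and 0.60 for time (limma adjusted p = 0.00794).

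Bst2 encodes tetherin, which ties budding virus particles to the cell surface, and lies on chromosome 8 (71534255 to 71537472). It had 5.11, 3.74 and 6.12 FPKM in Night DKO libraries, against 5.96, 5.04 and 4.67 FPKM in Night WT libraries. It had 3.16, 2.74 and 4.37 FPKM in Day DKO libraries, against 5.11, 5.44 and 2.93 FPKM in Day WT libraries. The genotypes overlapped at each time, and the times in each genotype. Averaged over genotypes its night to day difference was 0.32 (0.03 to 0.62, limma adjusted p = 0.158), and 0.21 without Day WT replicate 3. In DKO mice it was 0.44 (0.02 to 0.85, limma adjusted p = 0.307). With the choroid plexus score as a covariate it was 0.12 averaged (limma adjusted p = 0.556) and 0.07 in DKO mice (limma adjusted p = 0.928). Its averaged difference between genotypes had a 95% interval of -0.48 to 0.11. Of the 9 genes, Bst2 had the highest correlation with the choroid plexus markers, at r = 0.81 over 12 libraries and 0.71 with group means removed. The 2 libraries with the lowest Bst2, Day DKO replicate 2 and Day WT replicate 3, had choroid plexus sums of 79.5 and 1188 FPKM. Day DKO replicate 1, with 3.16 FPKM of Bst2, had a choroid plexus sum of 887 FPKM.

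Ifit3 and Ifit1 lie near each other on chromosome 19 (34583119 to 34588982 and 34640889 to 34650009) and encode proteins of 1 complex that binds viral RNA. Ifit3 had 1.59, 1.69 and 1.73 FPKM in Night DKO libraries, against 1.68, 1.81 and 1.57 FPKM in Night WT libraries. It had 1.14, 1.20 and 1.01 FPKM in Day DKO libraries, against 0.535, 1.33 and 1.08 FPKM in Day WT libraries. The lowest of the 6 night libraries lay above the highest of the 6 day libraries, which held for 2.84% of the tested genes in that direction, while the genotypes overlapped at both times.

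At night Ifit3 averaged 1.68 ± 0.0897 FPKM and by day 1.05 ± 0.274 FPKM (SD, n = 6 each). The averaged night to day difference was 0.40 (0.22 to 0.58, limma adjusted p = 0.0207). In DKO mice it was 0.34 (limma adjusted p = 0.220) and in WT mice 0.46 (limma adjusted p = 0.0647). The WT value was 0.29 without Day WT replicate 1 (limma adjusted p = 0.164) and 0.59 without Day WT replicate 2 (limma adjusted p = 0.0499), and its limma adjusted p was 0.0466 with library quality weights. As reported, none of the 9 genes passed for time in either genotype alone with limma, where 0.299% of the tested genes passed in DKO mice and 1.67% in WT mice. At an unadjusted p under 0.05 there were 4 of the 9 in DKO mice, all higher at night, beside 1915 of the 12689 tested genes. In WT mice there were also 4, of them 3 higher and 1 lower at night, beside 2827 of the 12689. Between genotypes the 95% interval for Ifit3 was -0.26 to 0.25 at night and -0.14 to 0.37 by day, differences whose sign depended on single libraries.

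Ifit1 had 0.530, 0.547 and 0.631 FPKM in Night DKO libraries, against 0.712, 0.829 and 0.612 FPKM in Night WT libraries. It had 0.419, 0.399 and 0.255 FPKM in Day DKO libraries, against 0.219, 0.599 and 0.589 FPKM in Day WT libraries. In each genotype the 3 night libraries lay above the 3 day libraries, as for Ifit3. Night libraries lay wholly above day libraries for 12.9% of the tested genes in DKO mice and 24.3% in WT mice. The averaged difference was 0.22 (0.07 to 0.38, limma adjusted p = 0.0774), and the addition of 1 FPKM before the log makes changes of so low a gene look smaller.

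Day WT replicate 1 had the lowest value of the 12 for both Ifit genes. Ifit1 and Ifit3 had the highest correlation of any pair among the 9, at r = 0.85 over the 12 libraries and 0.93 with group means removed. The 2 genes also share the pair of core sequences shown above. Ifit3b, a near copy of Ifit3, averaged 0.938 ± 0.193 FPKM in Night DKO, 1.30 ± 0.0931 FPKM in Night WT, 0.689 ± 0.158 FPKM in Day DKO and 0.664 ± 0.110 FPKM in Day WT libraries (SD, n = 3 each). Ifit3b passed for time, with 0.33 averaged over genotypes (limma adjusted p = 0.0162) and 0.47 in WT mice (limma adjusted p = 0.0357). The WT value did not pass in 9 of 20 other settings (limma adjusted p = 0.0509 to 0.135). These were no filter on low values, median-of-ratios scaling, the fit to only the groups compared, and the omission of Night DKO replicate 2, any Night WT replicate, or Day WT replicate 1 or 2. In those settings 1 to 64 of all tested genes passed for time in WT mice, against 212 as reported. Reads of the copies cannot be told apart in these tables, and the annotated span of Ifit1bl1, at a mean of 0.620 FPKM, includes that of Ifit1. With mural markers r was 0.88 for Ifit1 and 0.89 for Ifit3 once group means were removed, and 0.62 and 0.18 before (12 libraries). Day WT replicate 1, lowest in both Ifit genes, had a mural sum of 32.4 FPKM, against 48.4 and 47.5 FPKM in its group. How far the values with group means removed rest on that library was not tested. With border macrophage markers r was 0.44 and 0.43 once group means were removed, and 0.76 and 0.71 before. Neither relation was tested as a source of the time difference.

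Isg15 encodes a ubiquitin-like protein that is attached to other proteins after interferon, and lies on chromosome 4 (156199424 to 156200818). It had 0.544, 0.634 and 0.477 FPKM in Night DKO libraries, against 1.16, 0.477 and 0.470 FPKM in Night WT libraries. It had 1.72, 0.384 and 0.335 FPKM in Day DKO libraries, against 0.294, 0.646 and 1.10 FPKM in Day WT libraries. A single library set the top of 2 groups, Day DKO replicate 1 and Night WT replicate 1, and the groups overlapped in each comparison of genotype or time. The 95% interval was -0.41 to 0.35 for the averaged genotype difference and -0.44 to 0.32 for the averaged time difference. Its last bases overlap the annotated long noncoding RNA Gm46878, which was not analysed here.

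Of the factors that drive the response, Stat2 varied least. This partner of IRF9, on chromosome 10 (128270498 to 128292853), had 1.89, 1.64 and 1.89 FPKM in Night DKO libraries, against 1.72, 1.84 and 1.71 FPKM in Night WT libraries. It had 1.77, 1.88 and 1.74 FPKM in Day DKO libraries, against 1.75, 1.79 and 1.88 FPKM in Day WT libraries. The genotypes overlapped at each time, and the times in each genotype. Its intervals were the narrowest of the 9, at -0.08 to 0.10 for genotype and -0.10 to 0.08 for time on the averaged log2 scale. The start of Stat2 overlaps the annotated gene Apof, which had a mean of 0.0460 FPKM.

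Irf9, the DNA-binding member of the complex, on chromosome 14 (55603985 to 55610030), had 1.98, 1.57 and 1.84 FPKM in Night DKO libraries, against 2.00, 1.45 and 1.41 FPKM in Night WT libraries. It had 1.31, 1.67 and 1.34 FPKM in Day DKO libraries, against 1.44, 1.37 and 1.25 FPKM in Day WT libraries. The night libraries reached higher but overlapped the day libraries. Averaged over genotypes the night to day difference was 0.17 (0.03 to 0.32, limma adjusted p = 0.119). The averaged genotype interval was -0.07 to 0.22.

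Irf7, the factor that amplifies interferon production, also lies on chromosome 7 (141263183 to 141266499). It had 0.271, 0.479 and 0.550 FPKM in Night DKO libraries, against 0.525, 0.604 and 0.470 FPKM in Night WT libraries. It had 0.659, 0.508 and 0.327 FPKM in Day DKO libraries, against 0.350, 0.449 and 0.494 FPKM in Day WT libraries. The spread within each group was as wide as that between groups. The averaged intervals were -0.17 to 0.13 for genotype and -0.13 to 0.17 for time, and at this level depth, which is unknown, limits what can be seen.

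**Figure D3:**
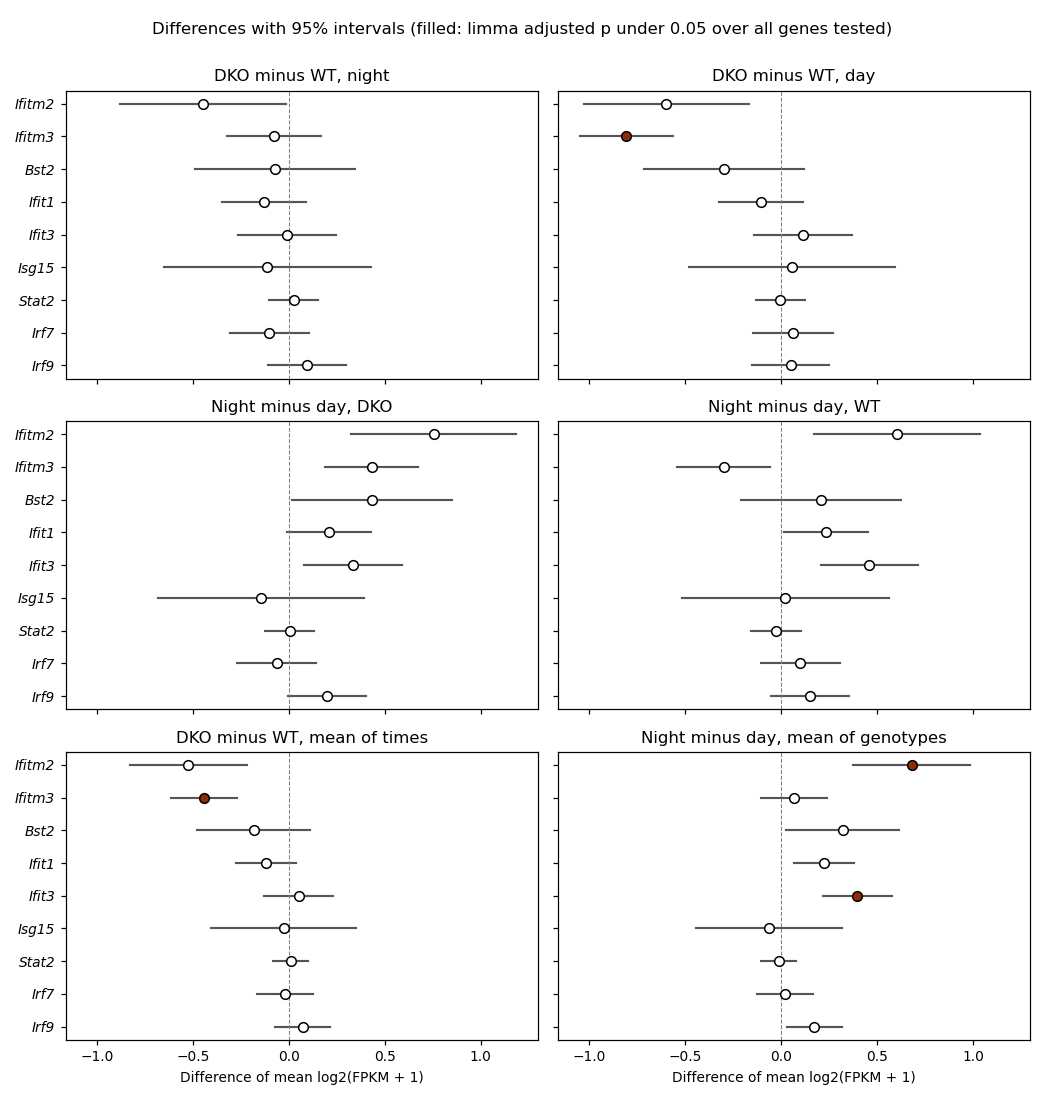
Differences of the 9 genes on the log2(FPKM + 1) scale (points) with 95% intervals (lines) in 6 comparisons. Filled points passed at a limma adjusted p under 0.05 over all tested genes. The filled points are Ifitm3 by day, Ifitm3 for genotype averaged over times, and Ifitm2 and Ifit3 for time averaged over genotypes.

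As a group, the 9 genes did not move one way between genotypes. By day 4 were higher and 5 lower in DKO mice, with a median log2 difference of -0.0043, beside 0.04 for all tested genes. At night 2 were higher and 7 lower, with a median of -0.08 beside -0.01. None of the 9 passed at night with limma, where 0.0236% of the tested genes passed, and 1 of them, Ifitm2, had an unadjusted p under 0.05, beside 1165 of the 12689. For night against day, 7 were higher and 2 lower in DKO mice (median 0.21 beside 0.02) and again 7 and 2 in WT mice (median 0.15 beside 0.07). Of all tested genes, 58.7% were higher at night in DKO mice and 72.1% in WT mice. The DKO against WT comparisons by day and at night and the time comparisons share libraries. None of the 9 passed for the interaction of genotype and time with limma, nor did any of the 12689 genes (0%), and 1 of the 9, Ifitm3, had an unadjusted p under 0.05, beside 1099 of the 12689.

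Across the 12 libraries, which share 4 groups and so part of their variation, the genes split rather than moved together. Ifitm2 correlated with Ifit1 at r = 0.73, with Bst2 at 0.61 and with Ifitm3 at 0.58. Ifitm3 and Bst2 correlated at 0.60, and at 0.70 with group means removed. Stat2 stayed between -0.20 and 0.18 with each of the other 8. Ifitm3 followed leptomeningeal markers at 0.74 and mural and endothelial markers at 0.72 each, and ran against hippocampal neuron markers at -0.72. With group means removed, r was 0.29 for leptomeningeal, 0.17 for mural, 0.55 for endothelial and -0.55 for hippocampal neuron markers. With the markers of activated microglia the highest correlation was 0.36, for Irf7, and with group means removed it was 0.71, again for Irf7. Averaged over times that list was higher in DKO mice for 8 of 9 tested genes, 2 of them past the threshold. Microglial markers summed to 76.1 to 105 FPKM in Night DKO libraries, against 70.6 to 77.2 FPKM in Night WT libraries, and to 89.3 to 98.7 FPKM in Day DKO libraries, against 63.0 to 70.6 FPKM in Day WT libraries. Of 7 T, NK and B cell markers in the tables none passed the filter, and Cd3e, Cd3d, Cd8a and Cd4 stayed under 0.1 FPKM in all 12 libraries.

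**Figure D4:**
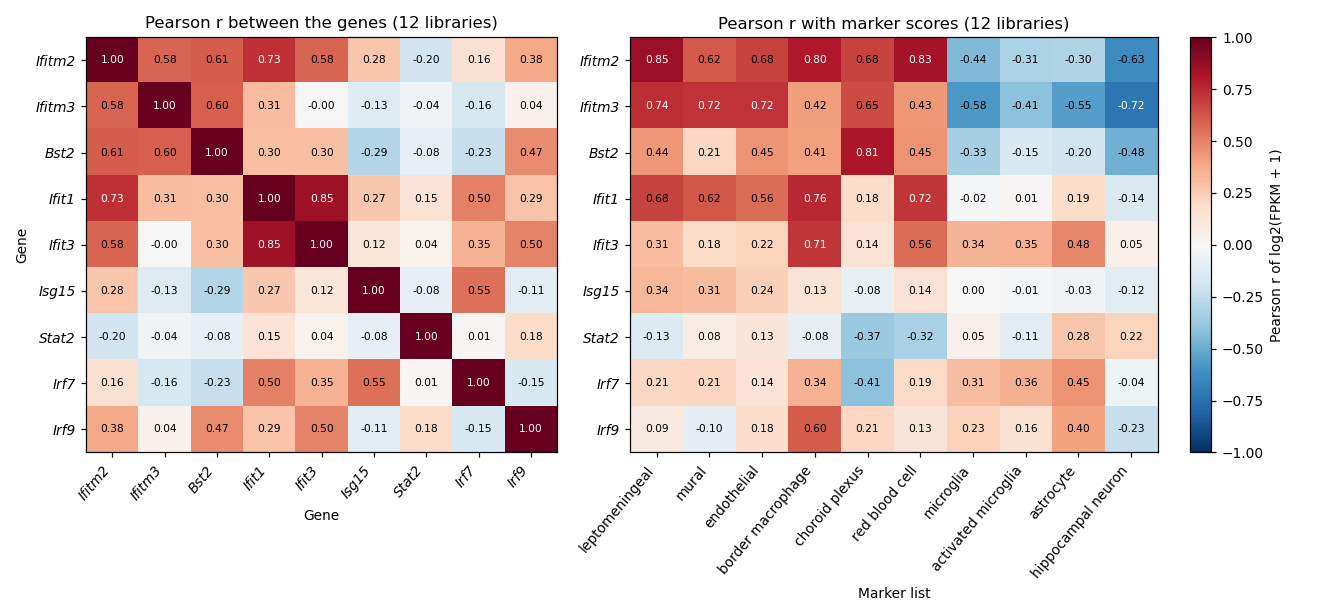
Pearson r of log2(FPKM + 1) over the 12 libraries, between the 9 genes (left) and between each gene and the mean log2 level of 10 marker lists (right). The colour runs from -1 (blue) to 1 (red). The highest values are 0.85, for Ifit1 with Ifit3 and for Ifitm2 with leptomeningeal markers.

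The genes whose levels ran most like each member over the 12 libraries were found among 11096 or 11097 genes with a mean log2(FPKM + 1) of at least 1. For Ifitm3 they were Iqgap1 (r = 0.91), Thbs1 (0.90) and Bmp6 (0.89), and for Ifitm2 they were Timp3 (0.95), Ahnak (0.93) and Ephb4 (0.92). Bst2 was followed by Ppcs (0.97), Tox (0.90) and Vat1l (0.90). Ifit1 ran with Apod (0.95) and Cav1 (0.92), and Ifit3 with Atg16l1 (0.95), Ndufb5 (0.94) and Ppa1 (0.94). For Irf9 the genes were Nxt1 (0.91), Arpin (0.89) and Plin4 (0.87), and for Stat2 they were Klhl5 (0.90), Rrm1 (0.84) and Gpr75 (0.84). The likeness was lowest for Irf7, with Zfyve28 (0.84), Clasp2 (0.84) and Pyroxd1 (0.82), and for Isg15, with Stk24 (0.82), Ahsa2 (0.79) and Pmp22 (0.79). These are descriptions of the top of a long ranking over few libraries.

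The rest of the pathway was read from lists of 146 further genes by role, of which 142 were in the tables and 70 passed the filter. Among the ligands, 19 of 21 interferon genes were at 0 in all 12 libraries. Ifna11 reached at most 0.0548 FPKM and Ifng, the gene of interferon gamma, at most 0.0210 FPKM. None of the ligands could be tested.

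Of 9 receptor and kinase genes, 8 were tested and none passed in any of the 7 comparisons (limma). The type I receptor chains Ifnar1 and Ifnar2 had 4.16 to 4.87 and 1.61 to 2.63 FPKM over the 12 libraries, and the gamma receptor chains Ifngr1 and Ifngr2 had 3.09 to 4.89 and 11.8 to 14.6 FPKM. Il10rb, a chain of the lambda receptor, had 1.53 to 2.92 FPKM, while its partner Ifnlr1 did not pass the filter. The kinases Jak1, Jak2 and Tyk2 had 15.2 to 19.6, 2.33 to 2.65 and 1.45 to 2.01 FPKM. Jak1 and Ifngr2 were above the mean of every one of the 9 genes in each library.

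Among 7 other transcription factors, all tested, none passed. Those with the smallest p for genotype averaged over times were Stat3 (0.11, limma adjusted p = 0.208), Irf8 (0.19, limma adjusted p = 0.292) and Irf5 (0.12, limma adjusted p = 0.420). Irf8 and Irf5 are known from microglia and macrophages. Of 7 inhibitors 6 were tested and none passed, with Ptpn6, Pias1 and Socs1 first by p, at 0.18, 0.05 and -0.03 for genotype averaged over times.

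Sensors of foreign nucleic acid and their adaptors gave 9 tested genes of 14. Tbk1, the kinase that activates IRF3 and IRF7, passed as higher at night averaged over genotypes, by 0.23 (limma adjusted p = 0.0221, and 0.0541 without Day WT replicate 1). It averaged 8.72 ± 0.250 FPKM in Night DKO, 8.26 ± 0.137 FPKM in Night WT, 7.24 ± 0.704 FPKM in Day DKO and 6.95 ± 0.553 FPKM in Day WT libraries (SD, n = 3 each). None of the 9 passed for genotype, and the smallest p averaged over times belonged to the sensor Tlr7 (0.19, limma adjusted p = 0.137), Ddx58, which encodes RIG-I (-0.12), and Ifih1, which encodes MDA5 (-0.09).

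The widest list held 84 other interferon-induced effectors, of which 40 passed the filter. Averaged over times, 33 of the 40 were lower in DKO mice, with a median of -0.09 beside 0.01 for all tested genes, of which 57.4% were higher. With limma, 2 passed as lower, Ifitm1 and Gbp2, and none as higher. Gbp2, a guanylate-binding protein that attacks the vacuoles of pathogens, averaged 0.973 ± 0.0849 FPKM in Night DKO libraries, against 1.27 ± 0.0475 FPKM in Night WT libraries, and 0.797 ± 0.0683 FPKM in Day DKO libraries, against 1.12 ± 0.182 FPKM in Day WT libraries (SD, n = 3 each). Its averaged difference was -0.22 (limma adjusted p = 0.0473), a call lost in 15 of 19 other settings, among them the omission of any library but Day WT replicate 3. The next by p was Ube2l6, the enzyme that carries ISG15 to its targets, at -0.25 (limma adjusted p = 0.0587).

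For time averaged over genotypes, 35 of the 40 effectors were higher at night, with a median of 0.08 beside 0.05, and 69.4% of all tested genes were. Ifit3b, Ifitm1, Ly6a, Ifi27 and Ube2l6 passed, 5 genes in all, each as higher at night. Ly6a, which marks endothelial cells in the mouse brain, averaged 6.41 ± 0.272 FPKM in Night DKO, 8.79 ± 0.679 FPKM in Night WT, 5.67 ± 0.376 FPKM in Day DKO and 5.63 ± 0.789 FPKM in Day WT libraries (SD, n = 3 each). Its difference was 0.36 averaged over genotypes (limma adjusted p = 0.00925) and 0.57 in WT mice (limma adjusted p = 0.0180). In WT mice it did not pass in the fit to only the groups compared, nor without Day WT replicate 1 or any of the Night WT replicates (limma adjusted p = 0.0536 to 0.0868). Of all 12689 tested genes, 23 passed in that fit and 1 without each of these libraries, against 212 as reported. Ifi27 differed by 0.28 (limma adjusted p = 0.0444), a call lost in 12 of 19 other settings, among them without 8 of the 12 libraries in turn. Ube2l6 differed by 0.30 (limma adjusted p = 0.0199, and 0.0537 without Day WT replicate 1). By day, at night, in DKO mice over time and for the interaction no gene of the wider pathway passed with limma, while 12, 9, 11 and 4 of the 70 had an unadjusted p under 0.05. Of the 12689 tested genes, 2161, 1165, 1915 and 1099 had one in the same 4 comparisons.

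The wider genes were also divided by the ISRE core. Of the 70 tested, 57 had a promoter window and 17 of those held a core. Averaged over times, 2 of the 17 with a core were higher in DKO mice (median -0.09), as were 17 of the 40 without one (median -0.01). For night against day averaged over genotypes, 14 of the 17 with a core were higher at night (median 0.11), as were 32 of the 40 without one (median 0.07). Whether the 2 sets differ was not tested.

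**Figure D5:**
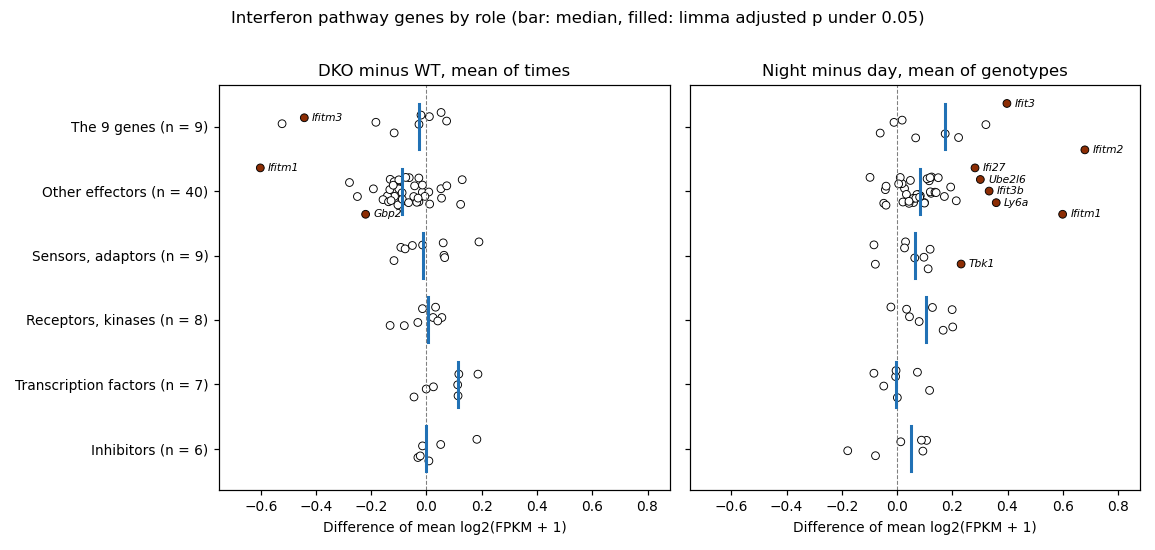
Differences on the log2(FPKM + 1) scale for the 9 genes and for 70 further pathway genes by role, for genotype averaged over times (left) and time averaged over genotypes (right). Each point is a gene, blue bars are medians, and filled, named points passed at a limma adjusted p under 0.05. The medians are -0.03 for the 9 genes and -0.09 for the other effectors on the left, and 0.17 and 0.08 on the right.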

How the data were processed

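RNA of 12 hippocampal libraries was made into stranded total-RNA libraries after removal of ribosomal RNA, per the labels' protocols. The authors deposited 1 table per library with 1 FPKM value per gene, a unit read from the values. The submitters' processing notes name GRCm38.p6, while the sources used here name no aligner, counter or annotation. With no counts in the tables, depth is unknown. Steps between low values put relative depth at 0.905 to 1.05 of Day WT replicate 1.

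Values were taken as log2(FPKM + 1) and fitted over all 12 libraries with limma 3.58.1 (R 4.3.3), with 1 mean per group, an intensity trend and Benjamini-Hochberg adjustment over 12689 genes with at least 0.5 FPKM in at least 3 libraries. The fit was tested on simulated data. The 7 comparisons were genotype by day, at night and averaged, time in DKO, in WT and averaged, and their interaction. A log2 difference understates the change of low genes.

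The members, lists and rules were chosen with earlier results of these data known. Beyond the 9 genes, the text names pathway genes called in any comparison, up to 3 a role by p for averaged genotype, receptors, kinases, and the 3 genes most like each member. A few genes that these rules name are not reported here. Mx1, Mx2, Ifi207, Cxcl11 and the marker Trac were not analysed here. Promoters came from RefSeq.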

Additional observations from a re-analysis of the deposited data

How the results depend on the processing

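Each result was recomputed under 8 other settings and without each of the 12 libraries in turn. The settings were applied to the wider pathway genes after seeing the data. The fit to only the groups compared was not run for the interaction and the averages. Of the 9 genes, 1 passed by day, 1 for averaged genotype and 2 for averaged time as reported. Of all 12689 tested genes, 150, 238 and 770 passed in these comparisons, and 212 for time in WT. With no filter on low values, 0 of the 9 passed for averaged genotype, beside 24 of all 17914 genes then tested. With the choroid plexus score as a covariate, 0 of the 9 passed by day, 0 for averaged genotype and 1 for averaged time. All tested genes gave 4, 107 and 403 there. With library quality weights, 1 of the 9 passed for time in WT and 2 for averaged genotype, beside 418 and 339 of all genes. Without single libraries, 1 to 2 of the 9 passed by day, and 0 to 1 for time in WT and likewise in DKO. For averaged genotype 0 to 2 passed, for averaged time 1 to 2, and at night and for the interaction 0 to 0. Of all tested genes, 13 to 205 passed by day, 1 to 213 for time in WT and 19 to 55 in DKO. For averaged genotype 80 to 255 of them passed, for averaged time 243 to 854, at night 2 to 38 and for the interaction 0 to 1.

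Of the wider pathway genes, 0 passed by day, at night and for time in DKO, 2 for time in WT and for averaged genotype, and 6 for averaged time as reported. With a pseudocount of 0.1 FPKM, 1 passed by day, and with median-of-ratios scaling 1 by day and 1 for time in WT. With no filter, 1 passed for time in WT and 0 for averaged genotype, beside 64 and 24 of all tested genes. With quantile normalization 1 passed for averaged genotype. In the fit to only the groups compared, 1 passed at night, 0 for time in WT and 1 for time in DKO. All tested genes gave 15, 23 and 26 there. With the choroid plexus covariate 1 passed for averaged genotype, and with quality weights 5 for time in WT. Without single libraries, 0 to 1 passed by day, at night and for time in DKO, 0 to 2 for time in WT, 1 to 3 for averaged genotype and 3 to 8 for averaged time, the 3 being without Day WT replicate 1.

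Same-numbered libraries of different groups deviated together by r = -0.116 to 0.247 over 18 pairs. In none of the 4 comparisons of genotype or time were all 3 pairs over 0.1, so the libraries were treated as sharing only a number. Those of Day DKO with Night WT, which are not compared, were 0.168 to 0.247. With the replicate block the members' counts were as reported (1 by day, 1 for averaged genotype, 2 for averaged time), and 1 wider gene passed for averaged genotype.

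The sign of the Ifit3 difference at night turned with quantile normalization (0.0094), with quality weights (0.0055) and without single libraries (-0.0413 to 0.0232). Without single libraries it also turned by day (-0.0584 to 0.2421), for averaged genotype (-0.0339 to 0.1163) and for the interaction (-0.2515 to 0.0490). The Ifitm2 interaction was -0.0549 with the choroid plexus covariate and -0.0269 to 0.3730 without single libraries. The cause was not tested. Of 37 other member differences none passed in any of the 20 settings, and 22 changed sign in at least 1. Depth is unknown and limits Irf7, Ifit1 and Isg15 most, which lay under 0.5 FPKM in some libraries.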
